A study of Homo sapiens with 22 samples.

Results

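HOXD13 binding in the Ewing sarcoma line CHLA10 was set against 4 histone marks of the same line, and every HOXD13 peak was given its full combination of marks. The deposited list of the CHLA10 HOXD13 library held 2103 peaks, of which 2099 lay on chromosomes 1 to 22 and X and were used, out of 9259 HOXD13 peaks in both lines of the series. No measured value chose the members: every peak of the list on these chromosomes entered. The series holds 22 CUT&RUN libraries from CHLA10 and A673, established cell lines from Ewing sarcoma, which arises in bone and soft tissue and carries the fusion factor EWS-FLI1. CUT&RUN tethers a nuclease to an antibody's target in permeabilised cells and sequences the short fragments released. The groups used were CHLA10_HOXD13 (1 library, antibody at 1:20), CHLA10_shNS_H3K27ac (2 libraries, 1:50), and CHLA10_shNS_H3K4me3, CHLA10_shNS_H3K4me1 and CHLA10_shNS_H3K27me3 (2 libraries each, 1:100), with the A673 groups of the same names as the comparison line. The mark libraries carry the label shNS and the HOXD13 libraries do not, so every overlap set 2 differently labelled kinds of culture beside each other. No drug treatment or time point is in the labels. HOXD13 was profiled in 1 library per line, so HOXD13 itself has no replicate and no difference below was tested. Nothing in the labels says whether mark replicates came from separate cultures.

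HOXD13 is a homeodomain transcription factor of the posterior HOX group, known for patterning of the distal limb and the genital tubercle, and it is active in Ewing sarcoma. Posterior HOX proteins of this group are known to prefer DNA with a TAAA core. H3K27ac marks active enhancers and promoters, H3K4me1 marks enhancers whether active or not, H3K4me3 marks promoters, and H3K27me3 marks chromatin held silent by Polycomb complexes. In Ewing sarcoma, EWS-FLI1 activates genes through GGAA repeats and lowers the activity of mesenchymal genes.

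CHLA10 mark peaks at the ends of known Ewing sarcoma genes were checked first, against the line's label. Of 17 such genes, 16 had H3K4me3 in both replicates within 1 kb of a gene end and 6 had H3K27ac, among them HOXD13, NR0B1 and STEAP1, while FLI1 had neither. None of 5 skeletal muscle and 3 endothelial genes had H3K4me3 or H3K27ac. SPI1 was the only one of 6 haematopoietic genes with H3K4me3, and KRT8, KRT18 and EPCAM were 3 of 6 epithelial genes, all without H3K27ac. The 8 CHLA10 mark lists held between 20956 and 44644 peaks, and replicate agreement ran from 22.9% of H3K4me1 peaks to 83.8% of H3K4me3 peaks also called in the other replicate. The lists give no read counts, so the depth behind a peak is unknown.

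The letters under the strongest gene-end peaks are shown first, because they carry a pattern described further on. RefSeq promoters (build GRCh38.p14, the 250 bases before each gene's start and 50 after it) were matched to 15812 of 19974 protein-coding genes. The promoters of 24 protein-coding genes held the summit of a CHLA10 HOXD13 peak, from 22 peaks. The upstream 250 bases of the promoters under the strongest peak and the second strongest are printed here, 5′ to 3′ along the gene, with any match to the searched motifs in capitals. RNF181 encodes an E3 ubiquitin ligase; its summit lies at base 175 of the stretch, and its match is the reverse complement of CAATAAA. HLA-DMB encodes a chaperone of class II HLA loading; its summit lies at base 166, and this stretch holds no match.
RNF181, chr2:85595495-85595744, plus strand: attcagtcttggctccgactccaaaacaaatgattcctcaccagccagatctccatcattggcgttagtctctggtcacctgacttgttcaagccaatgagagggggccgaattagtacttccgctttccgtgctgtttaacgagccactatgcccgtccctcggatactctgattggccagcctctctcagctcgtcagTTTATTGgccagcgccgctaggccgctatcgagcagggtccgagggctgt
HLA-DMB, chr6:32941029-32941278, minus strand: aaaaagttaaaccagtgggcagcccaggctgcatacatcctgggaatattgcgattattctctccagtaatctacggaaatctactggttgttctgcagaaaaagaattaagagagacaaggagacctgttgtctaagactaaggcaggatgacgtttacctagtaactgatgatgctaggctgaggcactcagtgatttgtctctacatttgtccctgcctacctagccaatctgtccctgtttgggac

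The 13 stretches below show every CAATAAA on either strand in the summit-bearing promoters, each turned to read CAATAAA in capitals, with 11 bases on each side. They are shown to let the flanks be compared.
RNF181, chr2:85595684-85595712, minus strand: gcggcgctggcCAATAAActgacgagctg
COPZ1, chr12:54325035-54325063, plus strand: caataattggcCAATAAAgcaagccttac
COPZ1, chr12:54324946-54324974, minus strand: gcttgaatactCAATAAAacgccaaaacc
MED19, chr11:57712437-57712465, plus strand: actagactaacCAATAAAatattaagttc
MED19, chr11:57712395-57712423, plus strand: ttgctacagtcCAATAAAatgacttaggc
TRIM38, chr6:25962632-25962660, minus strand: ttcttttacagCAATAAAaagaaggaacc
H3C6, chr6:26224117-26224145, minus strand: cttttcctagcCAATAAAaagagcagttt
PAIP2B, chr2:71227203-71227231, minus strand: cacatttagacCAATAAAaaccacatatg
RAB5B, chr12:55973762-55973790, minus strand: tatgtatccacCAATAAAatctcgacacc
WBP1L, chr10:102743755-102743783, minus strand: agcgatgcagcCAATAAAaagtaggagga
ILF2, chr1:153671085-153671113, plus strand: ggcttatgaacCAATAAAaaacgcctact
ILF2, chr1:153671002-153671030, plus strand: ccggcgtgtccCAATAAAacccggtgcga
DNM2, chr19:10717953-10717981, minus strand: gatacactagcCAATAAAaactaggcacg

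Most CHLA10 HOXD13 peaks carried either no mark or H3K27ac. A mark was counted as present where peaks of both of its replicates overlapped the HOXD13 peak by at least 1 bp. No mark was present at 1258 peaks (59.9%, 95% interval 57.8 to 62.0), against 93.2% of genome windows, and H3K27ac alone at 647 (30.8%, 28.9 to 32.8), against 0.533% of windows. The windows are 7932496 adjacent stretches of 349 bp, the median length of a HOXD13 peak, in 100-kb bins that hold a peak of any list. All intervals are exact Clopper-Pearson intervals and cover counting error only. H3K27ac alone was thus 57.9 times as common at HOXD13 peaks as in the windows.

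The other combinations were smaller. H3K27ac with H3K4me3 was present at 78 HOXD13 peaks (3.72%, against 0.188% of windows), H3K4me3 alone at 54 (2.57%, against 1.2%) and H3K27ac with H3K4me1 at 37 (1.76%, against 0.0494%). The ratio to the windows was 19.8 for H3K27ac with H3K4me3, 2.15 for H3K4me3 alone and 35.7 for H3K27ac with H3K4me1. H3K4me1 alone was present at 18 peaks (0.858%, against 0.0902%). H3K27ac, H3K4me1 and H3K4me3 met at 3 peaks (0.143%, against 0.00508%), H3K27me3 stood alone at 3 (0.143%, 0.0295 to 0.417, against 4.69%) and H3K4me1 with H3K4me3 was held by 1 (0.0476%, against 0.00354%). Of 16 possible combinations 9 were held, and none of them joined H3K27me3 to another mark. Such joins were rare in the windows too, where 373041 held H3K27me3 and 371708 held it alone, so their absence at HOXD13 peaks sets these peaks apart from the windows in no way. H3K27me3 was thus the mark present less often at HOXD13 peaks than in the windows, and H3K4me3 alone stood nearest to its window share among the combinations held more often.

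**Figure D1:**
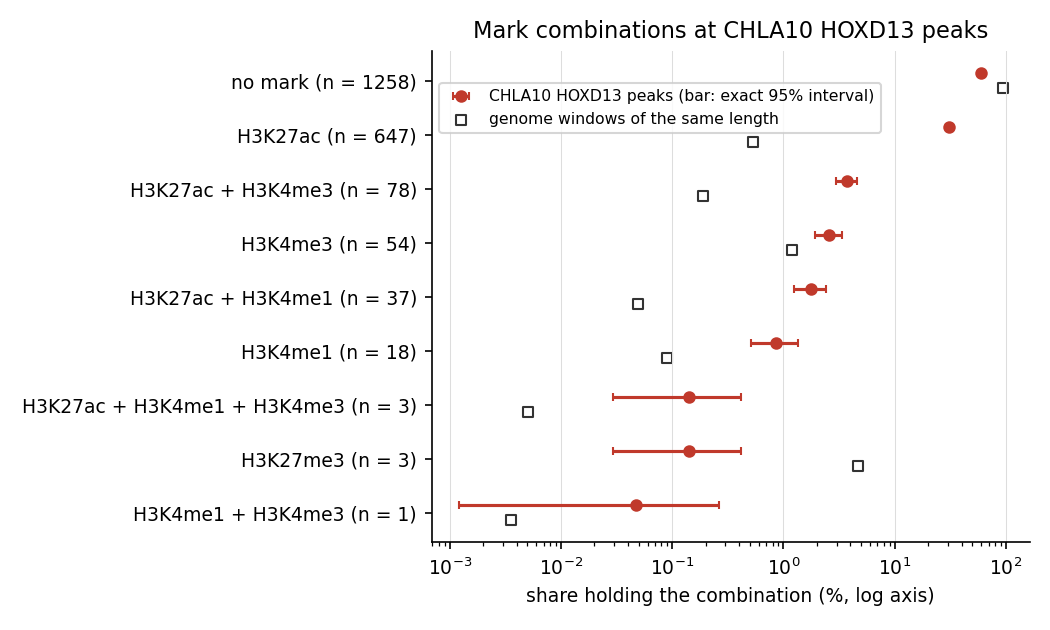
Share of CHLA10 HOXD13 peaks (filled circles, bars are exact 95% intervals) and of genome windows of the same length (open squares) that hold each combination of marks, on a log axis, with the number of peaks beside each name. H3K27ac alone stands at 30.8% of HOXD13 peaks and 0.533% of windows, while H3K27me3 alone is the combination with fewer HOXD13 peaks (0.143%) than windows (4.69%) besides no mark.

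Summed over combinations, H3K27ac was present at 765 HOXD13 peaks (36.4%, 34.4 to 38.5, against 0.775% of windows). H3K4me3 was present at 136 (6.48%, against 1.41%), H3K4me1 at 59 (2.81%, against 0.148%) and H3K27me3 at 3 (against 4.7%). Single replicates of H3K27ac gave 50.5% and 44.4% of HOXD13 peaks, and 461 peaks had H3K27ac in 1 replicate only. Single replicates of H3K4me3 gave 9.0% and 9.43%. For H3K4me1 they gave 8.43% and 7.58%, and the replicates met at few of these peaks: 33.3% of the HOXD13 peaks with H3K4me1 in replicate 1 had it in replicate 2. The count of combinations with H3K4me1 therefore rests on which replicates are asked for, since a single replicate gives a share well above that of both.

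A673 HOXD13 peaks fell into other combinations of their own line's marks. No mark was present at 59.9% of CHLA10 and 63.3% of A673 peaks. H3K27ac alone was present at 30.8% in CHLA10 and 3.18% in A673, and H3K4me1 alone at 0.858% in CHLA10 and 18.0% in A673. H3K27ac with H3K4me1 stood at 1.76% in CHLA10 and 5.61% in A673, and H3K27me3 alone at 0.143% and 1.89% in the same order. The mark lists themselves differ between lines, which bears on all of these values. In CHLA10 45.1% of replicate 1 and 71.9% of replicate 2 H3K27ac peaks were called in the other replicate, in A673 23.4% and 20.5%, and the H3K4me1 lists cover 9.63 and 11.3 Mb in CHLA10 and 74.5 and 51.6 Mb in A673. With 1 HOXD13 library per line these differences were not tested.

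The 5 strongest peaks with H3K27ac alone lay 16.6 to 443 kb from the nearest protein-coding gene boundary. Strength here is the authors' −log10 q value, and the gene named is the nearest protein-coding one. A peak inside CRB1, a gene of cell polarity in the retina, had a −log10 q of 313 and a fold enrichment of 56.6 (chr1:197249383-197249937, 48.1 kb inside the gene boundary). The peak nearest to MEIS1, whose product is a homeodomain partner of HOX proteins, had a −log10 q of 241 and lay 443 kb away (chr2:65991318-65991935). Peaks inside LOC124906005 and 168 kb from LOC100996696 had −log10 q values of 144 and 139. The fifth, at 134, lay 78.6 kb from TSHZ3, a zinc finger transcription factor gene. The MEIS1 peak overlapped an A673 HOXD13 peak, and the other 4 did not.

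Most of these summits sat beside the acetylated stretch, not in it. H3K27ac stretches are counted here where peaks of both replicates cover the same bases. The CRB1, MEIS1, LOC124906005 and LOC100996696 summits lay 187, 63, 175 and 128 bp outside the nearest stretch, although their peaks overlapped it, and the TSHZ3 summit lay 1120 bp inside one. Of all 765 HOXD13 peaks with H3K27ac, 528 summits (69%) lay inside a stretch, at a median of 331 bp from its nearer edge. The other 237 summits (31.0%) lay outside, at a median of 100 bp, and 211 of those within 250 bp. That nearness largely follows from the rule, since each peak had to overlap the mark and the median HOXD13 peak was 349 bp long. Inside, the distance to the nearer edge had a median of 0.305 of the stretch's length, where even placement would give 0.25.

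**Figure D2:**
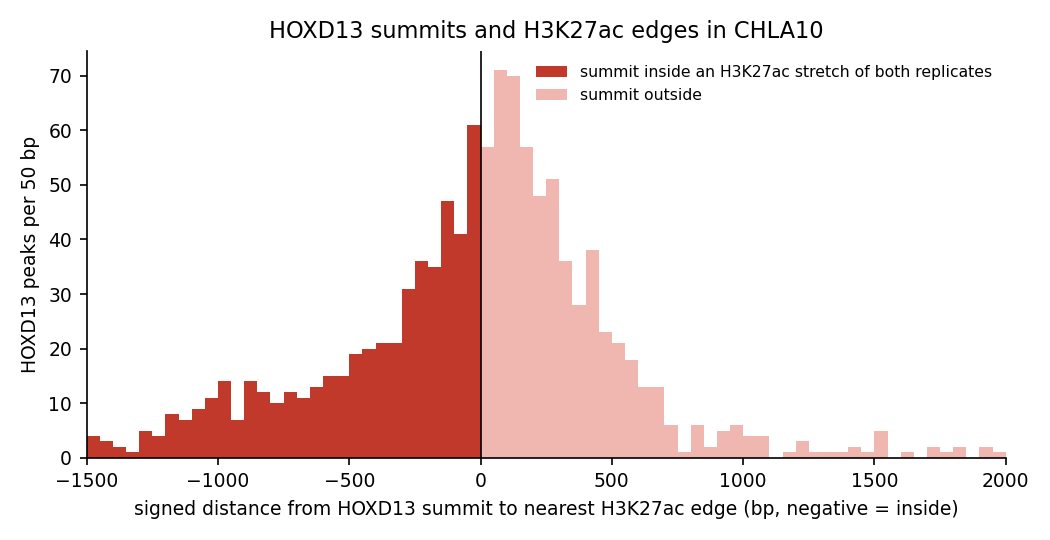
Number of CHLA10 HOXD13 peaks by signed distance, in bp, from the summit to the nearest edge of an H3K27ac stretch called in both replicates; dark bars are the 528 summits inside a stretch and light bars are summits outside, up to 2000 bp. Counts are highest within about 150 bp of the edge on either side, and 570 summits lie outside but within 1 kb.

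A shallow dip in H3K27ac coverage stood at the summit in both replicates. H3K27ac peaks covered 35.8% of HOXD13 summits in replicate 1 and 33.7% in replicate 2. Coverage was highest 300 bp to the side, at 38.7% and 36.2% (mean of both sides), and at 3000 bp it was 3.07% and 3.24%. In replicate 1, 186 summits (8.86%) lay in a gap with an H3K27ac peak within 1 kb on each side, and in replicate 2, 119 (5.67%). A peak on 1 side only stood beside 506 and 452 summits, and no H3K27ac peak stood within 1 kb of 656 and 821.

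H3K4me3 showed at most a small dip of this kind, and H3K4me1 showed none. H3K4me3 covered 6.24% of summits in each replicate (5.24 to 7.36) and, as the mean of both sides, at most 7.03% to the side. That side value is the highest over all distances and lies within the interval of the summit share. H3K4me1 coverage was highest at the summit itself, at 5.67% and 5.48%. Where a HOXD13 summit lay inside a mark peak, the median gap to that peak's own summit was 71 and 92 bp for H3K4me1, 175 and 213 bp for H3K27ac, and 328 and 371 bp for H3K4me3 (replicates 1 and 2). Peak length ran in the same order, with medians over the whole lists of 319 and 427 bp for H3K4me1, 498 and 681 bp for H3K27ac, and 1487 and 1537 bp for H3K4me3.

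H3K27me3 was low for a long way around HOXD13 summits. It covered 0.381% and 0.286% of summits in replicates 1 and 2, 1.14% and 1.24% of positions 50000 bp away, and 4.65% and 5.22% at 1000000 bp. Window centres stood at 7.04% and 7.43%. The level at 1000000 bp was thus still under that of the windows in both replicates.

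**Figure D3:**
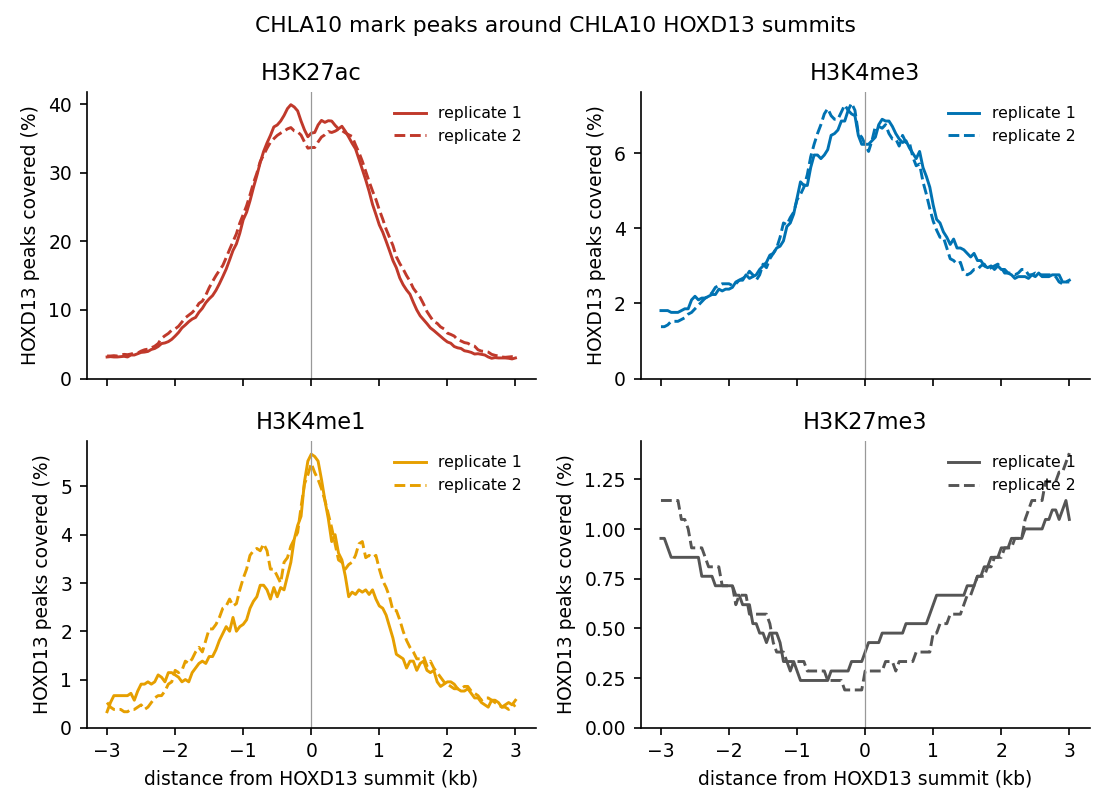
Share of CHLA10 HOXD13 peaks whose summit, or a position up to 3 kb to either side of it, is covered by a peak of each CHLA10 mark (solid line replicate 1, dashed line replicate 2; vertical axes differ between marks and start at 0). H3K27ac falls to 35.8% and 33.7% at the summit from 38.7% and 36.2% at 300 bp (mean of both sides), H3K4me1 is highest at the summit, and H3K27me3 stays under 1.5%.

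H3K4me3 alone was the class at gene ends. Of its 54 peaks, 23 (42.6%) had the summit within 1 kb of a protein-coding gene boundary. The same held for 6 of 78 peaks with H3K27ac and H3K4me3 (7.69%), 10 of 647 with H3K27ac alone (1.55%) and 14 of 1258 with no mark (1.11%). Over all HOXD13 peaks it was 2.62%, against 2.59% of windows, so the share for HOXD13 peaks as a whole was near that of the windows. The median distance to a gene boundary was 2.87 kb for H3K4me3 alone, 27.6 kb for H3K27ac with H3K4me1, 38.9 kb for H3K27ac with H3K4me3, 59.6 kb for H3K27ac alone and 82.6 kb for no mark. Peaks with H3K27ac and H3K4me1 lay mostly inside genes (78.4%), those with H3K4me3 alone less often (24.1%), and all HOXD13 peaks in 46.6%, against 45% of windows.

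**Figure D4:**
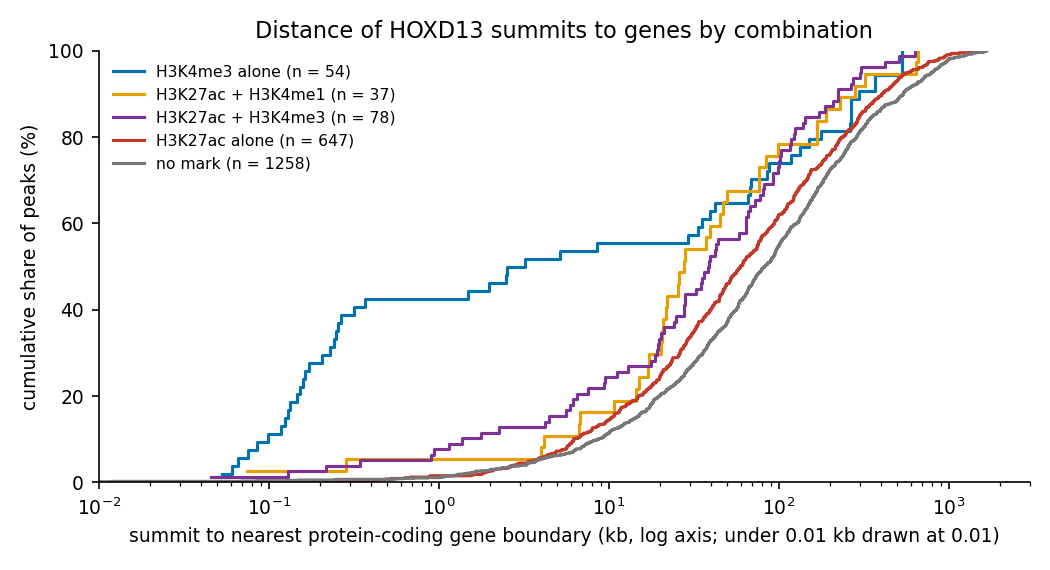
Cumulative share of CHLA10 HOXD13 peaks by the distance from summit to nearest protein-coding gene boundary, in kb on a log axis, for the 5 combinations with over 20 peaks. The curve of H3K4me3 alone reaches 42.6% by 1 kb, while the other 4 stay under 10% there.

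The H3K4me3 alone class held the strongest HOXD13 peak of the list, and its 5 strongest peaks all lay at gene ends. The RNF181 peak had a −log10 q of 655 (chr2:85595520-85595721, summit 76 bp from the gene boundary). Next came the promoters of TPP1, a lysosomal peptidase gene (154), NUSAP1, a mitotic spindle gene (147), COPZ1, a coatomer subunit gene (139), and RNF169, a ubiquitin ligase gene of the DNA damage response (130). Their summits lay 53 to 159 bp outside the gene. Among the 10 strongest peaks within 1 kb of a gene boundary, 8 had H3K4me3 alone. The other 3 of these 8 lay at TMX2, a thioredoxin-related gene (128), TRIM38 (94.2) and G3BP1, a stress granule gene (93.2). HLA-DMB (329) and NDUFB3, a gene of respiratory complex I (86.5), had no mark that both replicates called, and HLA-DMB had H3K27me3 in 1 replicate.

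H3K4me3 peaks under HOXD13 differed in strength between combinations and places. The 23 gene-end peaks of the H3K4me3 alone class overlapped H3K4me3 peaks with a median −log10 q of 64.1 and 50.8, which 71.6% and 66.9% of each replicate's list do not exceed. The 72 peaks with H3K27ac and H3K4me3 that lay farther than 1 kb from a gene boundary overlapped H3K4me3 peaks with medians of 6.67 and 8.02, which 23.8% and 28.1% of the lists do not exceed. The 31 peaks of the H3K4me3 alone class farther than 1 kb lay between, with medians of 20.9 and 26.2, which 42.9% and 48.5% do not exceed. The H3K4me3 peaks had median lengths of 2255 and 2645 bp at the 23, 2463 and 3321 bp at the 31, and 1040 and 926 bp at the 72. A673 had H3K4me3 in both replicates at 18 of the 23 (78.3%), 18 of the 31 (58.1%) and 13 of the 72 (18.1%), against 1.41% of windows. HOXD13 of A673 overlapped 13 of the 23, 6 of the 31 and 21 of the 72, against 24.0% of all CHLA10 HOXD13 peaks. The H3K4me3 alone class was not free of H3K27ac. A stretch of it lay within 1 kb of 15 of the 54 summits (27.8%), against 25.5% of unmarked peaks. In 1 replicate, H3K27ac overlapped 3 of the 23 and 10 of the 31.

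The reverse count, from mark peaks to HOXD13, ran opposite ways for H3K27ac and H3K4me3. Each mark list was divided into 10 equal parts by −log10 q. The share of H3K27ac peaks with a HOXD13 peak was 1.64% in the lowest part and 5.23% in the highest in replicate 1, and 2.10% and 7.33% in replicate 2. For H3K4me3 it was 1.68% in the lowest and 0.327% in the highest part in replicate 1, and 1.70% and 0.425% in replicate 2. The parts were not matched for peak length. H3K27ac peaks around a HOXD13 summit had median lengths of 1394 and 1741 bp, against 498 and 681 bp for the whole lists. The part of length in the rise of the H3K27ac share was not tested. H3K4me3 peaks with HOXD13 had a median −log10 q of 8.70 and 7.63, against 30.8 and 28.1 for all H3K4me3 peaks of CHLA10. In A673 the order was the other way round, with 109 and 99.2 at H3K4me3 peaks with A673 HOXD13 against 82.1 and 65.1 for all.

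**Figure D5:**
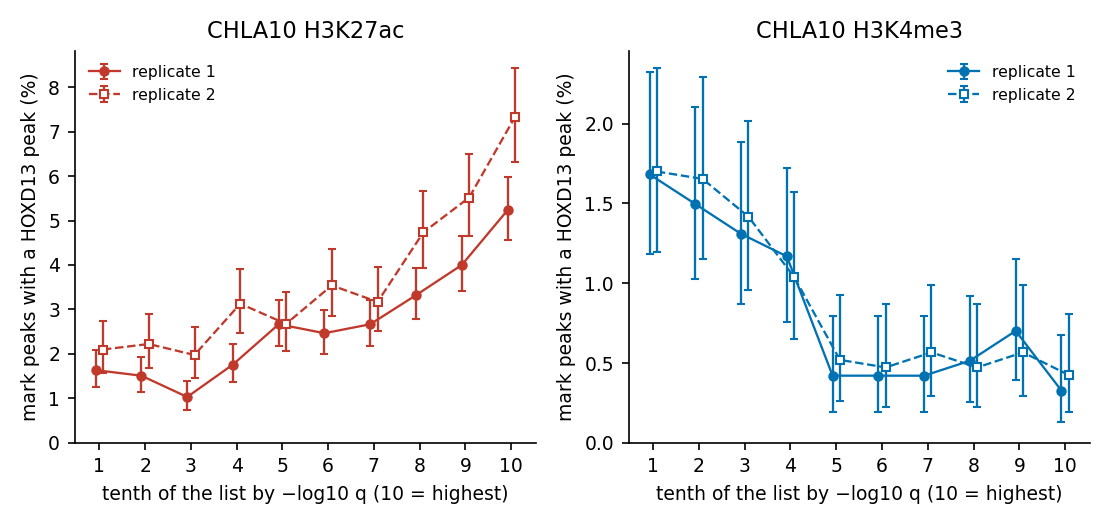
Share of CHLA10 H3K27ac (left) and H3K4me3 (right) peaks that overlap a CHLA10 HOXD13 peak, by equal parts of each list ordered by −log10 q (10 is the highest), with exact 95% intervals; filled circles are replicate 1 and open squares replicate 2. H3K27ac ends at 5.23% and 7.33%, and H3K4me3 falls to 0.327% and 0.425%.

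CAATAAA stood in 11 of the 24 protein-coding promoters with a HOXD13 summit (45.8%, 25.6 to 67.2), against 2.83% of all 15812 promoters and 2.03% of the 9862 promoters with H3K4me3 in both replicates. These 24 promoters hold the summits of only 22 peaks, and the interval counts each promoter as if it were separate. The 11 genes are RNF181, COPZ1, MED19, TMX2, TRIM38, H3C6, PAIP2B, RAB5B, WBP1L, ILF2 and DNM2, and MED19 and TMX2 share 1 peak between their promoters. All but DNM2, which had no mark, were of the H3K4me3 alone class. The matches lay 12 to 93 bp from the summit, with a median of 45 bp, and 12 of 13 inside the HOXD13 peak. As the printed stretches show, 11 of 13 (84.6%) read CCAATAAA, against 27.7% of the 462 CAATAAA matches in all promoters. This longer string was looked at after the stretches were seen.

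The other motifs searched, on both strands, were rarer. TCGTAAA, a posterior HOX sequence, stood in 1 of the 24, at CDK19, against 0.531% of all promoters. GGAAGGAA, a repeat of the ETS core, stood in 1, at HLA-DMB outside the stretch printed above, against 3.55%. The CAATAAA share among promoters with an A673 HOXD13 summit was 24 of 145 (16.6%, 10.9 to 23.6). Summit-bearing promoters of CHLA10 had a median GC content of 54%, against 62.7% for all promoters, and the part of base composition in the CAATAAA share was not tested. A match describes the letters and is not a measured binding site.

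Unmarked HOXD13 peaks were in part unmarked by the rule on replicates. Of the 1258, 505 (40.1%) had a mark in 1 replicate, 438 of them H3K27ac, and 753 (35.9% of all HOXD13 peaks) had no mark in any of the 8 libraries. H3K27ac lay within 1 kb of the summit in both replicates for 370 of the 1258 (29.4%). Over all HOXD13 peaks that share was 54.8%, against 1.83% of windows. No peak of any mark library came within 1 kb of the summit for 390 HOXD13 peaks (18.6%, 16.9 to 20.3). Of these 390, 73 (18.7%) overlapped an A673 HOXD13 peak, against 24.0% of all CHLA10 HOXD13 peaks.

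The strongest unmarked peaks were strong HOXD13 peaks. After HLA-DMB came peaks inside EXOC4, an exocyst subunit gene (−log10 q 224, no mark in any library), 932 kb from GRIK2, a glutamate receptor gene (195), and inside OTOGL (183). The GRIK2 peak had no mark in any library, and OTOGL had H3K27ac and H3K4me1 in 1 replicate each. The nearest H3K27ac stretch lay 27.5 to 77.0 kb from these 4 summits. EXOC4 and HLA-DMB overlapped an A673 HOXD13 peak.

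H3K27ac was less common at the strongest HOXD13 peaks than at the rest. With the list divided into 4 equal parts from the lowest to the highest −log10 q, H3K27ac was present at 39.6%, 37.5%, 39.3% and 29.3% of peaks, and the interval of the last part (25.5 to 33.4) stayed under the other 3 values. H3K27ac within 1 kb of the summit in both replicates stood at 63.0%, 56.2%, 57.4% and 42.7%. Peaks with no mark of any library within 1 kb made up 11.4%, 17.5%, 19.7% and 25.7%. Among peaks with H3K27ac, the summit lay outside the stretch for 26.4%, 25.9%, 35.9% and 37.0%.

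H3K27ac with H3K4me3 and H3K27ac with H3K4me1 held fewer peaks, mostly inside genes. The strongest with H3K27ac and H3K4me3 lay inside PNISR, a gene of an arginine and serine rich protein (231), CYP7B1, an oxysterol hydroxylase gene (103), DNM3, a dynamin gene (91.8), MRTFA, a coactivator gene of serum response factor (75.4), and ZC3H12C (62.1). The PNISR summit lay 2.26 kb from the gene boundary and 121 bp outside the H3K27ac stretch, and those at DNM3 and MRTFA lay 566 and 1037 bp inside one. With H3K27ac and H3K4me1 the strongest lay inside TTC3, a ubiquitin ligase gene (120), NOS1AP (71.0) and ZNRF3, a ubiquitin ligase gene that removes WNT receptors (69.6). Next were a peak 659 kb from XPNPEP1 (65.3) and one inside CREM, a cyclic AMP response gene, 4.01 kb from CUL2 (57.6). All 5 of these summits lay inside the H3K27ac stretch, 48 to 722 bp from its edge.

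The rare combinations held few peaks. H3K27ac, H3K4me1 and H3K4me3 met inside CLIP1, a microtubule plus-end gene (−log10 q 32.6), and MAP2K5, a kinase gene of the ERK5 pathway (12.4). H3K27me3 stood at peaks inside KCNIP4 (29.5, nearest boundary that of PACRGL at 103 kb), ZNF503 (20.5, nearest boundary that of LOC124902461 at 10.8 kb) and LGR6, a gene of an R-spondin receptor (9.44). H3K4me1 with H3K4me3 stood at 1 weak peak 16 kb from MMP20, an enamel protease gene (3.53). The MAP2K5 and ZNF503 peaks overlapped an A673 HOXD13 peak.

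Sharing with A673 differed little between the large combinations. Over all CHLA10 HOXD13 peaks, 504 of 2099 (24.0%) overlapped an A673 HOXD13 peak. HOXD13 peaks of A673 overlapped 286 of 1258 unmarked CHLA10 peaks (22.7%, 20.4 to 25.2), 161 of 647 with H3K27ac alone (24.9%, 21.6 to 28.4), 29.5% of those with H3K27ac and H3K4me3 and 35.2% of those with H3K4me3 alone. These intervals overlap. Marks of A673 at the same places did differ by class. A673 H3K27ac was present in both replicates at 11.9% of the H3K27ac alone class and 3.82% of the unmarked class, against 0.376% of windows. A673 H3K4me1 was present at 24.0% and 11.4% in that order, against 1.52% of windows. A673 H3K27me3 was present at 2.62% of the unmarked class, against 4.36% of windows.

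A gene was assigned to a HOXD13 peak where its boundary was the nearest within 100 kb. This gave 1235 peaks a gene, left 864 without one, and named 971 genes (4.86% of 19974). Unmarked peaks named 586 genes, H3K27ac alone 352, H3K27ac with H3K4me3 54, H3K4me3 alone 38, H3K27ac with H3K4me1 27 and H3K4me1 alone 12. Peaks of more than 1 combination were assigned to 97 genes, and 83 of them had an H3K27ac peak and an unmarked one. At the gene ends themselves, H3K27ac was present for 42.6% of the genes with H3K27ac and H3K4me3 peaks and 31.3% of those with H3K27ac alone. It was present for 31.6% of those with H3K4me3 alone and 19.5% of those with unmarked peaks, against 17.7% of all genes. H3K27me3 was present at 1.14% of the genes of H3K27ac peaks and 4.10% of those of unmarked peaks, against 10.9% of all genes. H3K4me3 was present at 73.3% and 71.2% in that order, against 63.9% of all genes, and H3K4me1 at 2.84% and 2.39%, against 1.11%.

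The list of genes that EWS-FLI1 represses had the highest share with a HOXD13 peak of the 9 gene lists described, 8 of 32 (25.0%, against 4.86% of all genes). The lists were chosen with earlier results of these data known, so ranks among them are descriptions and not independent support. No list was matched to all genes for gene length or spacing, and the part of either in these shares was not tested. Of the 11 peaks of these 8 genes, 6 had H3K27ac in both replicates (54.5%, against 36.4% of all HOXD13 peaks). Those with H3K27ac alone lay inside COL5A2, a collagen gene (−log10 q 17.6), and CALD1, an actin-binding gene (17.8), and near CAV2, a caveolin gene (18.3). A stronger CAV2 peak (34.6) was unmarked, 379 bp from an H3K27ac stretch. Those with H3K27ac and H3K4me3 lay 0.345 kb from CCN1, a matrix signalling gene (17.3), and a pair stood about 64 kb from ITGB1, an integrin gene (33.6 and 4.18). ANXA1 had a pair of unmarked peaks (60.9 and 15.8), FOXO1 an unmarked one 102 bp from an H3K27ac stretch (20.7), and COL3A1 one with H3K4me3 alone (15.9).

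TGF-beta and BMP genes had the highest share of acetylated peaks among these lists. Of 37 genes, 5 had a peak (13.5%, against 4.86% of all genes), and 7 of their 9 peaks had H3K27ac (77.8%, against 36.4% of all HOXD13 peaks). TGFB2, which encodes a TGF-beta ligand, held 3 peaks with H3K27ac alone 28.9 to 35.2 kb inside the gene (17.4, 40.9 and 28.3). SMAD4, the common signal transducer, held 1 (65.0), LTBP1, which binds latent TGF-beta, held a pair (30.3 and 2.51), and of the pair near BMP5, a BMP ligand gene, 1 had it (4.33). The remaining BMP5 peak (7.17) and the one near the activin receptor gene ACVR2A (12.2) were unmarked, and this BMP5 peak had H3K27ac in 1 replicate. Some of these peaks lie within 1 kb of each other, so they are not separate sites.

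Of 42 limb and skeletal factor genes, 3 had a peak (7.14%, against 4.86% of all genes), and their 6 peaks were unmarked, as were 59.9% of all HOXD13 peaks. GLI3, a transcription factor gene of hedgehog signalling in the limb, held 4 (9.17, 11.4, 18.7 and 11.9), of which 3 lie within 1 kb of each other. EPHA3 held 1 (24.3), and 1 lay 90.9 kb from ALX1 (37.8). H3K27ac stood in 1 replicate at the GLI3 peak of 11.4 and at the EPHA3 peak, which lay 262 bp from an H3K27ac stretch. The HOX gene list, which includes the neighbouring gene MTX2, had 2 of 42 (4.76%), near the 4.86% of all genes. HOXC11, with an unmarked peak 1.56 kb away (6.96), was the only HOX gene among them. The other was MTX2, which adjoins the HOXD cluster and had unmarked peaks inside it (64.1 and 4.66). The stronger MTX2 peak had H3K4me1 in 1 replicate. None of 9 HOX cofactor genes was the nearest gene of a peak within 100 kb.

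The other lists also stand beside 4.86% of all genes with a peak and 36.4% of all HOXD13 peaks with H3K27ac. Among WNT pathway genes 5 of 44 had a peak (11.4%), and 2 of 6 peaks had H3K27ac (33.3%), those inside LGR4, an R-spondin receptor gene (44.2), and TCF7L2, a transcription factor of the pathway (23.9). The peaks near LGR5, another R-spondin receptor gene (42.2), and inside ROR1, a WNT receptor gene (36.8), were unmarked, as was the stronger of the LGR6 pair (14.6). The ROR1 peak had H3K27ac in 1 replicate, and that LGR6 peak had H3K4me1 and H3K27me3 in 1 replicate each. Matrix genes had 7 of 34 (20.6%), and 2 of their 8 peaks had H3K27ac, at COL5A2 and LAMA2. The strongest matrix peak, inside the laminin gene LAMA2 (99.7), was unmarked by the rule and had H3K27ac in 1 replicate. The same held for the peak inside LAMA4, another laminin gene (73.8). It also held for those 41.1 kb from FBN2, a fibrillin gene (24.2), and 72.3 kb from COL11A1, a collagen gene (21.0). The peak inside VCAN, a proteoglycan gene (26.7), had no H3K27ac and H3K4me1 in 1 replicate. Mesenchymal transition factors had 3 of 18 (16.7%). H3K27ac was present at a peak 46.8 kb from TWIST1 (29.6) and, with H3K4me3, at one inside YAP1 (33.6). Both peaks inside PRRX1 (19.5 and 5.72) were unmarked by the rule and had H3K27ac in 1 replicate. Genes activated by EWS-FLI1 had 3 of 35 (8.57%), and 1 of their 5 peaks, near JAK1 (40.7), had H3K27ac. The peaks at KIT (34.1 and 16.04) and KDSR (12.4 and 9.28) had no mark that both replicates called. COL5A2 and COL3A1 count in 2 of these lists.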

How the data were processed

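The deposited files are the authors' peak lists, 1 per library. Per the file headers and peak names, HOXD13, H3K27ac, H3K4me1 and H3K4me3 were called as narrow peaks against IgG, and H3K27me3 as broad peaks. The authors deposited for each peak a fold enrichment (a ratio), −log10 p and −log10 q values, and a score derived from the −log10 q. Bowtie2, MACS2, SEACR 1.2, bedtools and hg38 are named by the submitters' processing notes, which do not say what each did. Peak numbers have gaps, so each list is a selection by a criterion not given in the sources used here. Cells numbered 250000 to 500000 per library and reads were 25 bp at each end.

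Peaks on chromosomes 1 to 22 and X were overlapped (minimum 1 bp) in Python 3.11.15 with numpy 2.4.6, pandas 2.3.3 and SciPy 1.17.1. The overlap code was tested on simulated peaks. Genes and promoters came from RefSeq (GRCh38.p14), which gave boundaries without exons. Members and gene lists were chosen with earlier results of these data known. Named peaks are the 5 strongest of each combination with at least 20 peaks, every peak of combinations with 5 or fewer, peaks of list genes, and the 10 strongest at gene ends; some items are not reported here. Promoters that hold CAATAAA, and what lies beside it, were described after their values were seen. Of 6 promoter sequences allowed, those of the strongest peak and the second strongest were printed. No p-value was computed, since HOXD13 has 1 library per line. IgG libraries had no list and were not used here.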

Additional observations from a re-analysis of the deposited data

Results flagged for a closer look

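The CHLA10 HOXD13 list also held 4 peaks on unplaced sequences, outside the chromosomes compared. They stand in data that no comparison above used, and are given as a count only.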

How the results depend on the processing

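Of 86 alternatives to the values above, 38 moved a value by less than the spread between mark replicates or its counting interval and 48 moved it further. No paired analysis was possible because no result comes from a test and the HOXD13 list has 1 library. A mark peak in either replicate gave 58.4% for H3K27ac, 13.2% for H3K4me1, 12.0% for H3K4me3, 0.619% for H3K27me3, 35.9% for no mark, 40.5% for H3K27ac alone and 7.58% for H3K27ac with H3K4me3. The upper 50% of each mark list by q gave 22.2% for H3K27ac, 1.43% for H3K4me1, 2.38% for H3K4me3, 75.2% for no mark, 20.9% for H3K27ac alone and 0.667% for H3K27ac with H3K4me3. Requiring the summit inside the mark peak gave 25.2%, 2.14%, 4.38%, 71.5%, 22% and 2.0% in that order. A mark within 1 kb of the summit, chosen after seeing the data, gave 54.8% for H3K27ac, 5.57% for H3K4me1, 12.2% for H3K4me3, 0.286% for H3K27me3, 41.0% for no mark, 41.5% for H3K27ac alone and 9.0% for H3K27ac with H3K4me3. The upper 50% of HOXD13 peaks gave 5.90% for H3K4me3.

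Leaving out each mark replicate in turn gave 44.4% to 50.5% for H3K27ac, 7.58% to 8.43% for H3K4me1, 9.0% to 9.43% for H3K4me3, 0.286% to 0.476% for H3K27me3, 46.7% to 59.8% for no mark, 27.6% to 44.1% for H3K27ac alone and 3.38% to 5.53% for H3K27ac with H3K4me3. The median distance from an inside summit to the edge was 329 to 482 bp for H3K27ac, against 331 bp with both replicates, and 333 to 374 bp for H3K4me3, against 399 bp. These follow from asking 1 replicate for a peak in place of both. The 971 assigned genes became 273 within 10 kb, 571 with the upper 50% of HOXD13 peaks and 1596 with all annotated genes; the cut in distance, in peaks and the longer gene list set these counts by construction. Joining summits within 1 kb, chosen after seeing the data, left 1899 sites and moved no value beyond its spread. H3K27ac was more common at HOXD13 peaks than any other mark under every alternative named here, and H3K27me3 less common.

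The limits are the single HOXD13 library, unknown read depth, a selection behind the lists that the sources used here do not state, and HOXD13 cells that lack the shNS label.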
